A study of Mus musculus with 6 samples.

Results

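The 9 genes described here are 7 facilitative sugar carriers of the SLC2 family (Slc2a1, Slc2a3, Slc2a4, Slc2a6, Slc2a8, Slc2a9 and Slc2a10), the sodium-coupled carrier Slc5a9, and Clip3, which encodes a linker protein tied to the traffic of a glucose carrier. They were picked by symbol from a table of 53445 mouse loci, and each symbol occurred there once. The choice was made with the difference between the genotypes in these libraries already known, so the fold changes of these 9 genes are given as a description and carry no p-value. RNA had been sequenced from sorted LSK cells (lineage-negative, Sca-1-positive, Kit-positive), the bone marrow fraction that holds blood stem cells and the earliest progenitors. There were 3 OgaVav-Cre and 3 wildtype libraries, 1 mouse each, from female mice aged about 12 weeks on a C57BL/6 background, with at least 20000 cells sorted per mouse. OgaVav-Cre mice carry a floxed Oga gene and the Vav-iCre transgene. The Vav promoter drives Cre throughout the blood lineage, so more mature blood cells of these mice lack Oga too. The study describes the wildtype mice as littermates, and no group with Cre alone was analysed here.

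Cells take up glucose through 2 kinds of carrier. SLC2 proteins (the GLUT family) let sugars pass down their gradient, and SLC5 proteins (the SGLT family) couple sugar to sodium. Some of the glucose that enters is turned into UDP-GlcNAc by the hexosamine pathway, and this nucleotide sugar is what O-GlcNAc transferase attaches to proteins. OGA, the enzyme encoded by Oga, takes the O-GlcNAc group off again. Slc2a4 (GLUT4) is the carrier that insulin moves to the surface of muscle and fat cells, while Slc2a1 (GLUT1) and Slc2a3 (GLUT3) sit at the surface of many cells and carry their basal glucose supply.

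The 6 libraries held between 19318056 and 27064389 reads on loci, and 3 reads in a library corresponded to 0.109 to 0.156 CPM (reads scaled to 1000000 per library after TMM normalisation). The targeted gene, listed as Mgea5, had 104, 109 and 110 reads in the OgaVav-Cre libraries and 3164, 2970 and 2736 in the wildtype libraries, or 3.09% of the wildtype level. All 12 LSK marker genes were present in every library. OgaVav-Cre replicate 3 stood apart: its summed LSK markers were the lowest of the 6 (1286 CPM against 1669 to 2864), and its 11 markers of lineage-positive cells were the highest (637 CPM against 136 to 397). Its erythroid sum (2340 CPM against 224 to 714) and neutrophil sum (1697 CPM against 405 to 1009) were also the highest. The 7 plasma cell markers split the libraries another way, at 11150 and 5411 CPM in OgaVav-Cre replicates 1 and 2 and 7631 CPM in wildtype replicate 2, against 1529 to 2670 CPM in the other three. In such bulk samples, fewer cells of a type and less RNA per cell cannot be told apart. Results that rest on OgaVav-Cre replicate 3 are given with and without it. No lab batch or date is given in the labels, so no within-batch value could be had.

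Promoter windows of 2 genes are shown, Clip3 as one of the pair that was lower in OgaVav-Cre cells and Slc2a1 as a well-expressed carrier that was not. Each window runs from 250 bases before to 50 bases after the RefSeq start site (GRCm38.p6, a later build than the mm9 coordinates used elsewhere), 5′ to 3′ on the gene's strand. Capitals mark matches, on either strand, to 5 short motifs. They are the GC box, spelled GGGCGG, the TATA box, spelled TATAAA, and the box spelled CCAAT. The other two are the E box, spelled CACGTG, and the core of the hypoxia response element. The letters of that core are ACGTG, and they are contained in every E box. The Slc2a1 window lies at chr4:119108495-119108794 and the Clip3 window at chr7:30291445-30291744, both on the plus strand.
Slc2a1: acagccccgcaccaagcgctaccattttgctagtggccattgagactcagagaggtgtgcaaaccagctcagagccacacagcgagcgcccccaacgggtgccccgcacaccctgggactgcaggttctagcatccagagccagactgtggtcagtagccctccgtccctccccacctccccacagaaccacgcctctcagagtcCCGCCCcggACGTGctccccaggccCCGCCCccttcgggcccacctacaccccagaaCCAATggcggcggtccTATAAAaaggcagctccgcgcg
Clip3: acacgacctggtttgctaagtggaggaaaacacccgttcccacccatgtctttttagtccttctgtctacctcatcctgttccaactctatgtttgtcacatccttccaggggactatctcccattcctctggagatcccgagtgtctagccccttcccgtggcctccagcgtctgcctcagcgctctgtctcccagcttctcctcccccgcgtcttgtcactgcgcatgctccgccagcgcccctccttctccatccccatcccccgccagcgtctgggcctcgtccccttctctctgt
The Slc2a1 window held 2 GC boxes, 1 TATA box, 1 CCAAT box and 1 ACGTG, and its base composition was 65.3% G or C with 18 CpG. Its CCAAT and TATA matches lay downstream of the start site, beginning at positions 13 and 29. The Clip3 window, with 59.0% G or C and 14 CpG, held none of the 5 motifs. Over all 32851 RefSeq windows of this length, 35.7% held a GC box, 13.6% a TATA box, 37.4% a CCAAT box, 7.15% an E box and 19.6% an ACGTG, and the medians were 52.7% G or C and 7 CpG. These letter matches describe the windows and say nothing of what binds there. Of the 9 genes, 6 had a window, and Slc2a3, Slc2a4 and Slc5a9 had none. Slc2a6 (2 GC boxes and 2 CCAAT boxes) and Slc2a10 (2 GC boxes, 1 CCAAT box and 1 ACGTG) resembled Slc2a1 in these matches. Slc2a8 had 5 CCAAT boxes and nothing else, and Slc2a9, the window with the fewest CpG (2), had no match.

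The first question was which carriers LSK cells express. Levels were compared between genes as CPM per kilobase of the locus length in the table, as the mean ± SD of the 3 wildtype libraries. Slc2a3 came first at 11.3 ± 2.80 and Slc2a1 second at 8.96 ± 2.35, and their ranges overlapped. In each of the 3 wildtype libraries Slc2a3 was nevertheless above Slc2a1. A clear step followed, since no wildtype library had Slc2a9 above the lowest Slc2a1 value. Slc2a9 (GLUT9, best known as a urate carrier) reached 2.27 ± 0.315 and Slc2a8 (GLUT8, an intracellular carrier) 1.89 ± 0.222, again with overlapping ranges. Slc2a6 (GLUT6, found on lysosomes) lay apart from Slc2a8 at 1.28 ± 0.215. Slc2a10 (GLUT10), at 0.910 ± 0.441, overlapped both Slc2a6 above it and Clip3 below it. Clip3 stood at 0.744 ± 0.211 and Slc5a9 at 0.664 ± 0.329, and these neighbours could not be told apart either. Slc2a4 was last and apart from all others at 0.0803 ± 0.00741, with 6, 6 and 8 reads in the wildtype libraries.

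**Figure D1:**
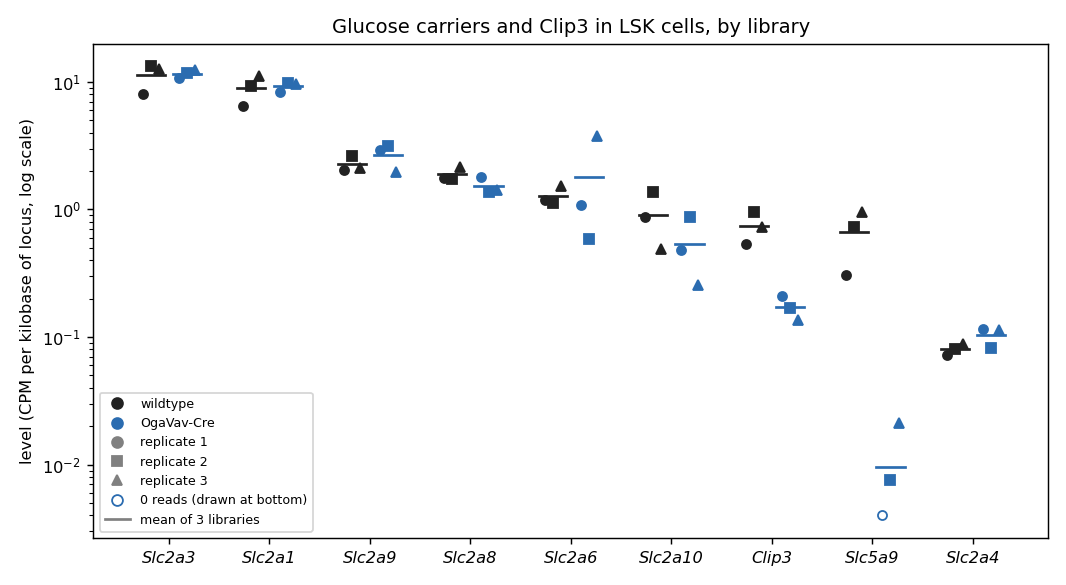
Level of each gene in each library as CPM per kilobase of locus on a log axis, ordered by the wildtype mean. Black symbols are wildtype, blue symbols OgaVav-Cre, symbol shape gives the replicate, and short lines are means of 3 libraries. The open symbol at the bottom is OgaVav-Cre replicate 1, which had 0 reads of Slc5a9. Slc5a9 and Clip3 are the 2 genes whose groups do not overlap, with OgaVav-Cre below wildtype, as held for 9.97% of all loci tested.

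The length used changed which neighbours overlapped, but not the order. The locus length of Slc2a3 (7638 bases) merges several transcripts and was 1.93 times that of its coding transcript with the longest coding sequence (3959 bases), while for Slc2a1 the ratio was 1.09. Per kilobase of that transcript, a scale chosen after the data were seen, Slc2a3 stood at 21.7 ± 5.40 and Slc2a1 at 9.81 ± 2.57, and their ranges no longer overlapped. On the same scale Slc2a6 (2.44 ± 0.411) overlapped Slc2a8 (2.88 ± 0.340) and was apart from Slc2a10 (0.917 ± 0.444). The deposited RPKM gave the same order as CPM per kilobase of locus, from 10.03 ± 2.44 for Slc2a3 to 0.0716 ± 0.00756 for Slc2a4. All 3 scales ranked the 9 wildtype means alike.

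**Figure D2:**
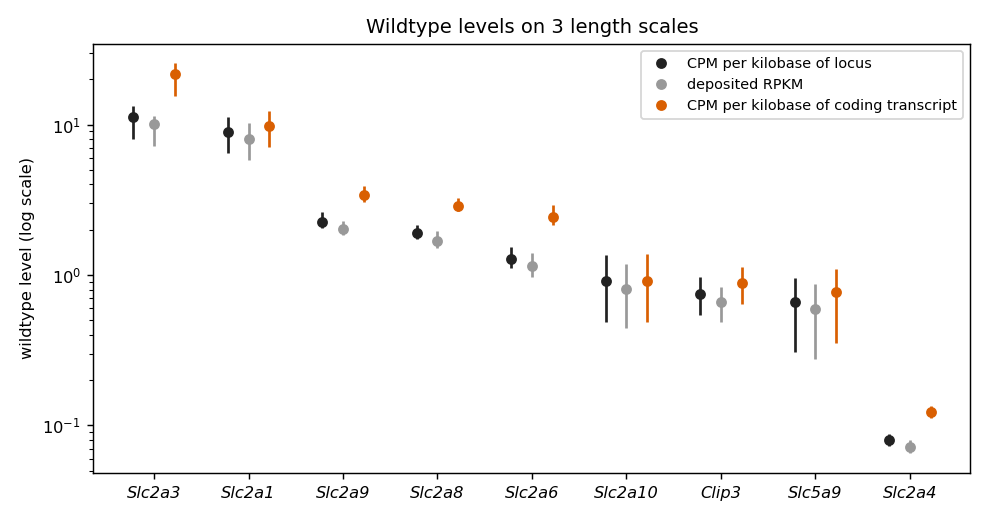
Wildtype level of the 9 genes on 3 length scales (log axis): CPM per kilobase of locus, the deposited RPKM, and CPM per kilobase of coding transcript. Points are means of 3 libraries and lines run from the lowest to the highest library. Slc2a3 and Slc2a1 overlap on the first 2 scales and separate on the third, at 21.7 and 9.81.

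The summed level of the family differed between the genotypes by less than the spread between libraries. The 12 SLC2 genes in the table added up to 27.4 ± 5.25 CPM per kilobase of locus in wildtype and 28.4 ± 2.07 in OgaVav-Cre cells (SD, n = 3 each). Slc2a1 and Slc2a3 together made up 73.4 ± 4.55% of it in wildtype and 73.4 ± 2.12% in OgaVav-Cre cells. By library this share was 68.4%, 74.5% and 77.3% in wildtype and 72.2%, 75.9% and 72.1% in OgaVav-Cre. The share of Slc2a6 was the one that varied most among the OgaVav-Cre libraries, at 4.09%, 2.05% and 12.4%, against 3.72% to 5.60% in wildtype. Of the 5 SLC2 genes that are not among the 9, Slc2a12 (GLUT12) was the only one to pass the filter on low counts, at 0.661 ± 0.0498 CPM per kilobase in wildtype. The others, Slc2a2, Slc2a5, Slc2a7 and Slc2a13, had at most 19 reads in any library.

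**Figure D3:**
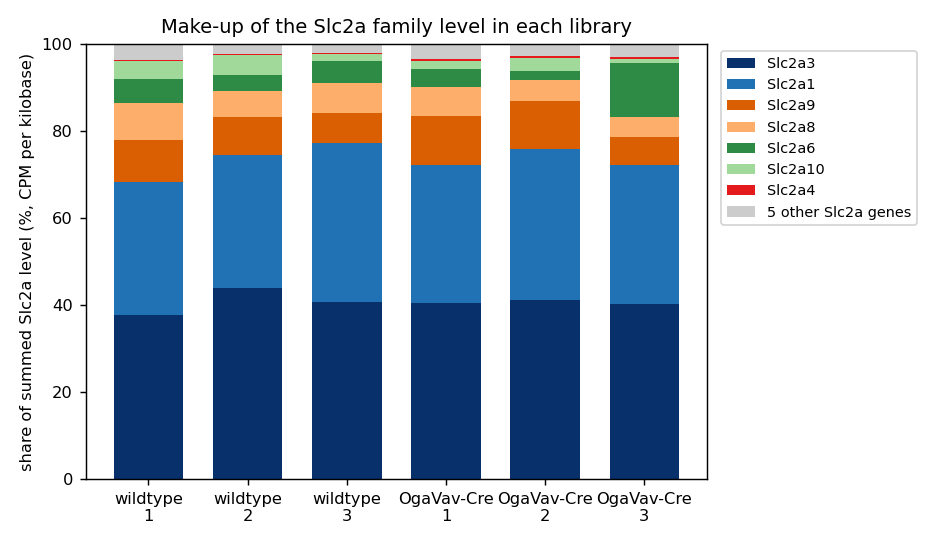
Share of each SLC2 gene in the summed SLC2 level (CPM per kilobase of locus), 1 stacked bar per library. The 2 blue bands, Slc2a3 and Slc2a1, fill 68.4% to 77.3% of every bar, and Slc2a6 is widest in OgaVav-Cre replicate 3 at 12.4%.

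The surface carriers Slc2a1 and Slc2a3 differed little between genotypes. Slc2a1 was at 23.8, 28.0 and 27.5 CPM in the OgaVav-Cre libraries and at 18.6, 26.2 and 31.9 in the wildtype libraries. The OgaVav-Cre values lay inside the wildtype range, and the log2 fold change (OgaVav-Cre over wildtype) was 0.049 with an SE of 0.21. Slc2a3 was at 81.2, 89.6 and 93.8 CPM in OgaVav-Cre and at 61.6, 101 and 95.9 in wildtype. Here too the OgaVav-Cre libraries fell within the wildtype range, and the log2 fold change was 0.036 with an SE of 0.19. The low wildtype value came in replicate 1 for both genes, and leaving that library out turned the sign of each, to -0.13 for Slc2a1 and -0.15 for Slc2a3.

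At the 3′ end of Slc2a1 (mm9 chr4:118781316-118809935, plus strand, Entrez 20525) the table holds LOC100503370 on the opposite strand, sharing 772 bases with it. Its reads amounted to between 26.4% and 35.9% of the Slc2a1 reads in a library. Whether counting used strand is not given in the sources used here, and the kit named does not mark strand, so reads from the shared bases cannot be assigned to one of them. Slc2a3 (chr6:122677827-122751658, minus strand, Entrez 20527) contains 2 small loci on its own strand, ENSMUSG00000092076 and AK145738, with at most 13 and 3 reads. The share of Slc2a3 reads they could account for was below 1% in every library.

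Slc2a4, the insulin-responsive carrier, was close to the detection limit. It had 10, 8 and 12 reads in the OgaVav-Cre libraries, or 0.443, 0.317 and 0.438 CPM, against 0.281, 0.311 and 0.338 CPM in wildtype. The groups overlapped, and the gene did not pass the filter on low counts, so no fold change was fitted. Over the summed reads of each genotype, 30 against 20, the OgaVav-Cre level was 128% of wildtype with an exact 95% interval of 70.4% to 238%. That interval covers counting error only, and a difference was not detectable at this depth. The Slc2a4 locus (chr11:69747786-69761692, minus strand, Entrez 20528) reaches beyond the GENCODE gene (69756045 to 69761690) and spans Ybx2 on the opposite strand. The reads of Ybx2 numbered 2, 4 and 6 across the OgaVav-Cre libraries, against 10, 9 and 12 across the wildtype ones. The 6 muscle and fat markers summed to 1.76 to 3.64 CPM in the 6 libraries. Most of this came from Adipoq, a fat cell marker and the only 1 to pass the filter on low counts. It was at 2.75, 1.78 and 2.99 CPM in OgaVav-Cre and 1.13, 1.19 and 2.83 in wildtype. Myh4 and Lep were at or below 3 reads in every library.

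The intracellular carriers Slc2a8 and Slc2a6 showed different spreads. Slc2a8 was at 5.77, 4.43 and 4.60 CPM in OgaVav-Cre and 5.72, 5.60 and 6.90 in wildtype. OgaVav-Cre replicate 1 overlapped the wildtype range and the other two lay below it, and the log2 fold change was -0.30 with an SE of 0.23. Slc2a8 (chr2:32828502-32837603, minus strand, Entrez 56017) lies within Garnl3 on the same strand. For Garnl3, 23, 36 and 27 reads were counted in OgaVav-Cre cells against 8, 12 and 6 in wildtype cells. Its log2 fold change of 1.46 ± 0.49 (SE) was not called (edgeR adjusted p = 0.416). The Garnl3 reads amounted to 17.7% to 32.1% of the Slc2a8 reads in OgaVav-Cre libraries and to 3.68% to 11.1% in wildtype libraries. How reads from the shared bases were assigned is not given in the sources used here, which limits the Slc2a8 value.

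Slc2a6 was higher in a single OgaVav-Cre library. The 3 OgaVav-Cre libraries had 4.39, 2.37 and 15.4 CPM and the wildtype libraries 4.87, 4.57 and 6.22. Replicate 3 of OgaVav-Cre thus lay 2.48-fold above the highest other library, while OgaVav-Cre replicates 1 and 2 were below the lowest wildtype library. The log2 fold change was 0.50 with an SE of 0.62, and without OgaVav-Cre replicate 3 it was -0.63 with an SE of 0.35. As a ratio of mean CPM, OgaVav-Cre stood at 142% of wildtype with that library and at 64.8% without it. The same library had the highest lineage-positive, erythroid and neutrophil marker sums given above, and their part in the Slc2a6 value was not tested. No other locus in the table overlaps Slc2a6 (chr2:26876883-26883518, minus strand, Entrez 227659).

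Slc2a9 and Slc2a10 both varied within the genotypes. Slc2a9 (chr5:38740512-38894382, minus strand, Entrez 117591) was at 15.8, 16.8 and 10.5 CPM in OgaVav-Cre and 11.01, 14.1 and 11.4 in wildtype. OgaVav-Cre replicates 1 and 2 were above every wildtype library and replicate 3 below every one, for a log2 fold change of 0.24 with an SE of 0.22 that was 0.43 without replicate 3. The 3 libraries with the highest Slc2a9, OgaVav-Cre replicates 1 and 2 and wildtype replicate 2, were those with the high plasma cell sums. The same libraries had the highest LSK sums (2295, 2617 and 2864 CPM, against 1286 to 2108 CPM in the others). They also had the lowest lineage-positive sums (151.5, 135.7 and 144.5 CPM, against 267 to 637 CPM). The part of any of these cells in the Slc2a9 value was not tested. Slc2a10 (chr2:165329287-165345417, plus strand, Entrez 170441) was at 1.73, 3.13 and 0.912 CPM in OgaVav-Cre and 3.14, 4.88 and 1.73 in wildtype. The groups overlapped over much of their range, though each OgaVav-Cre library was below the wildtype library of the same number. Its log2 fold change was -0.75 with an SE of 0.54, and single libraries moved it from -1.30 (without OgaVav-Cre replicate 2) to -0.33 (without wildtype replicate 2). Without OgaVav-Cre replicate 3 it was -0.41 with an SE of 0.50. With the replicate number as a block in the fit it was -0.80 with an SE of 0.295, and whether the numbers pair mice is not known. The lowest library of each genotype was replicate 3, the library with the higher lineage-positive sum of its genotype (637 CPM in OgaVav-Cre and 397 CPM in wildtype), and the part of those cells in the Slc2a10 value was not tested.

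**Figure D4:**
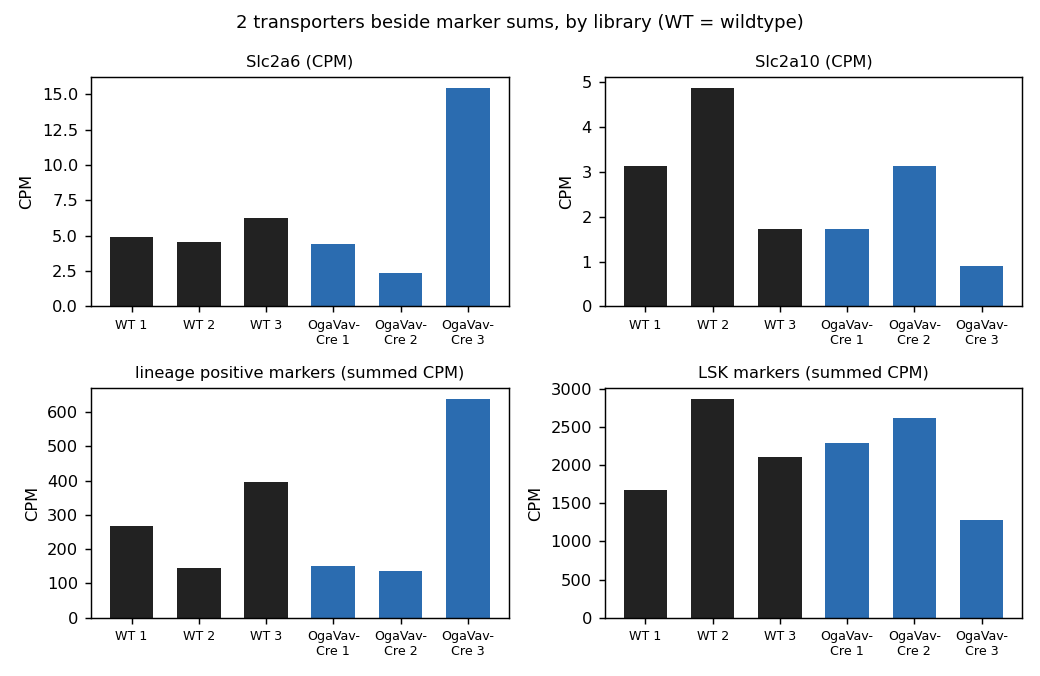
Slc2a6 and Slc2a10 (CPM) beside the summed CPM of 11 lineage-positive and 12 LSK marker genes, 1 bar per library, black for wildtype (WT) and blue for OgaVav-Cre. OgaVav-Cre replicate 3 has the highest Slc2a6 (15.4 CPM), the lowest Slc2a10 (0.912 CPM), the highest lineage-positive sum and the lowest LSK sum.

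Slc5a9 was the gene that differed most. It encodes SGLT4, a sodium-coupled carrier of mannose, glucose and related sugars known mainly from kidney and gut. The OgaVav-Cre libraries had 0, 1 and 3 reads and the wildtype libraries 34, 73 and 117. In CPM these were 0, 0.0396 and 0.109 against 1.59, 3.79 and 4.95, so the highest OgaVav-Cre library was far below the lowest wildtype library. Over summed reads, 4 against 224, wildtype was 65.6-fold above OgaVav-Cre with an exact 95% counting interval of 25.3 to 243. Put the other way, OgaVav-Cre held 1.53% of the wildtype level (0.412% to 3.96%). The fitted log2 fold change was -5.90 with an SE of 0.79, and its size depends on the prior count because the OgaVav-Cre reads are so few. OgaVav-Cre replicate 3 holds 3 of those 4 reads, and without it the log2 fold change was -7.03 and the mean OgaVav-Cre CPM went from 1.44% to 0.575% of wildtype. With any other single library removed, OgaVav-Cre stood between 1.14% and 2.16% of wildtype. Slc5a9 passed the filter on low counts only through its wildtype libraries. Among those it varied 3.11-fold, and their SD was 4.26 times what counting error alone gives.

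Slc5a9 spans chr4:111547980-111575523 on the minus strand (Entrez 230612), with 16 exons in the merged locus, and no other locus overlaps it. The nearest locus before it in coordinate order, Spata6 at a distance of 46191 bases, had a log2 fold change of -0.28 (edgeR adjusted p = 0.532). The nearest after it, Skint8 at 16474 bases, had 0 reads in every library. Of 4 markers of kidney and gut epithelium, Cdh16, Lrp2 and Vil1 were each between 0 and 0.311 CPM in every library. Epcam, the only one to pass the filter on low counts, was at 24.4, 10.05 and 6.71 CPM in OgaVav-Cre and 5.72, 14.5 and 4.53 in wildtype. It was highest in the 3 libraries with the high plasma cell sums, which also had the highest LSK sums. Which cells it came from was not tested.

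Clip3 was lower in OgaVav-Cre by a smaller factor. The protein, also called CLIPR-59, is a linker at the trans-Golgi network and plasma membrane that is known to bind AKT and to affect the delivery of GLUT4 in fat cells. OgaVav-Cre libraries had 19, 17 and 15 reads, or 0.843, 0.673 and 0.547 CPM, and wildtype libraries had 46, 74 and 69 reads, or 2.16, 3.84 and 2.92 CPM. The groups did not overlap, and the spread among the OgaVav-Cre libraries (SD 0.886 times that of counting error) was no larger than counting gives. Among the wildtype libraries the SD was 2.24 times that of counting error. Over summed reads, 51 against 189, wildtype was 4.34-fold above OgaVav-Cre (exact 95% counting interval 3.17 to 6.03, which leaves out the spread between mice). The fitted log2 fold change was -2.11 with an SE of 0.38, and it lay between -2.29 and -1.88 with any single library removed.

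Clip3 spans chr7:31076691-31093386 on the plus strand (Entrez 76686) with no overlapping locus. Its neighbours are close, Thap8 at 1435 bases before it and Alkbh6 at 350 bases after it, both on the same strand. Their log2 fold changes were -0.42 (edgeR adjusted p = 0.768) and -0.35 (edgeR adjusted p = 0.492), so neither was called. Neuron markers, which would mark another tissue known for Clip3, summed to between 0.0730 and 0.208 CPM, and Snap25, Syt1 and Rbfox3 were at or below 3 reads in every library.

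Against the whole table, 8 of the 9 genes were tested among 22032 loci, and a locus was called where its log2 fold change passed 1 in size and its adjusted p was under 0.05. edgeR called 0 of the 8, while it called 6 loci lower (0.0272%) and 1 higher (0.00454%) over the table. The DESeq2 Wald test, the tool named in the study's methods, called 2 of the 9, Slc5a9 and Clip3, both lower. Its background was 0.332% of 24725 loci lower and 0.142% higher. The OgaVav-Cre libraries were all below the wildtype libraries for the same 2 genes of the 8, against 9.97% of all loci tested, and all above for none, against 7.5%. Because the 9 genes were chosen with this contrast known, nothing is read from these counts. The median log2 fold change of the 8 was -0.13, beside 0.0041 over all loci tested.

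Other genes around glucose uptake were taken as lists of 52, of which 40 could be tested. edgeR called none of them in either direction (DESeq2 none either), with 2 lower and 0 higher at an unadjusted p below 0.05 and a smallest edgeR adjusted p of 0.445. Their median log2 fold change was -0.035. In 3 of the 40 the OgaVav-Cre libraries were all below wildtype and in 2 all above, against the 9.97% and 7.5% over all loci.

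Among the SLC5, SLC50 and SLC37 sugar carriers, 8 of 12 were tested and none was called. Slc50a1, the mammalian SWEET carrier, had the highest level at 28.3 ± 3.63 CPM per kilobase in OgaVav-Cre and 30.9 ± 5.95 in wildtype. The smallest unadjusted p belonged to Slc5a11 (-0.86 ± 0.64, SE) and to Slc37a1 (-0.25 ± 0.19), with an edgeR adjusted p of 0.636 and 0.638. Slc5a2 (SGLT2, the renal carrier), picked out after its values were seen, read 3.70 ± 0.803 CPM per kilobase in OgaVav-Cre and 4.40 ± 0.876 in wildtype, above Slc5a9 in both. Its 3′ part shares 1303 bases with BC017158 on the opposite strand, whose reads amounted to between 214% and 271% of those of Slc5a2 in a library. Slc5a1, the intestinal SGLT1, had 0 reads in all 6 libraries.

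The 23 genes of glucose transporter traffic were all tested, and none was called. Snap23, a SNARE protein of vesicle fusion, had the smallest p with a log2 fold change of -0.41 ± 0.15 (SE, edgeR adjusted p = 0.445), and Arrdc4, an arrestin that restrains glucose uptake, followed with -0.47 ± 0.18 (edgeR adjusted p = 0.445). Both had every OgaVav-Cre library below every wildtype library. Txnip, the arrestin most closely tied to glucose supply, was the most abundant of the list at 186 ± 17.8 CPM per kilobase in OgaVav-Cre and 207 ± 54.5 in wildtype.

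Of the 9 genes of glucose phosphorylation and its reversal, 5 were tested and none was called. Hk2 (hexokinase 2) had a log2 fold change of 0.22 ± 0.11 (SE, edgeR adjusted p = 0.520) and G6pc3, a glucose-6-phosphatase, 0.13 ± 0.17 (edgeR adjusted p = 0.799). Hk1 had the highest wildtype level of the 5 at 18.1 ± 1.90 CPM per kilobase. Of the 3 other CLIP genes, Clip4 was at -1.40 ± 0.62 (SE, edgeR adjusted p = 0.481) with overlapping groups, and Clip1 and Clip2 were at 0.0063 and -0.067. Clip2 had the highest level of these 3, at 7.75 ± 1.24 CPM per kilobase in wildtype.

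**Figure D5:**
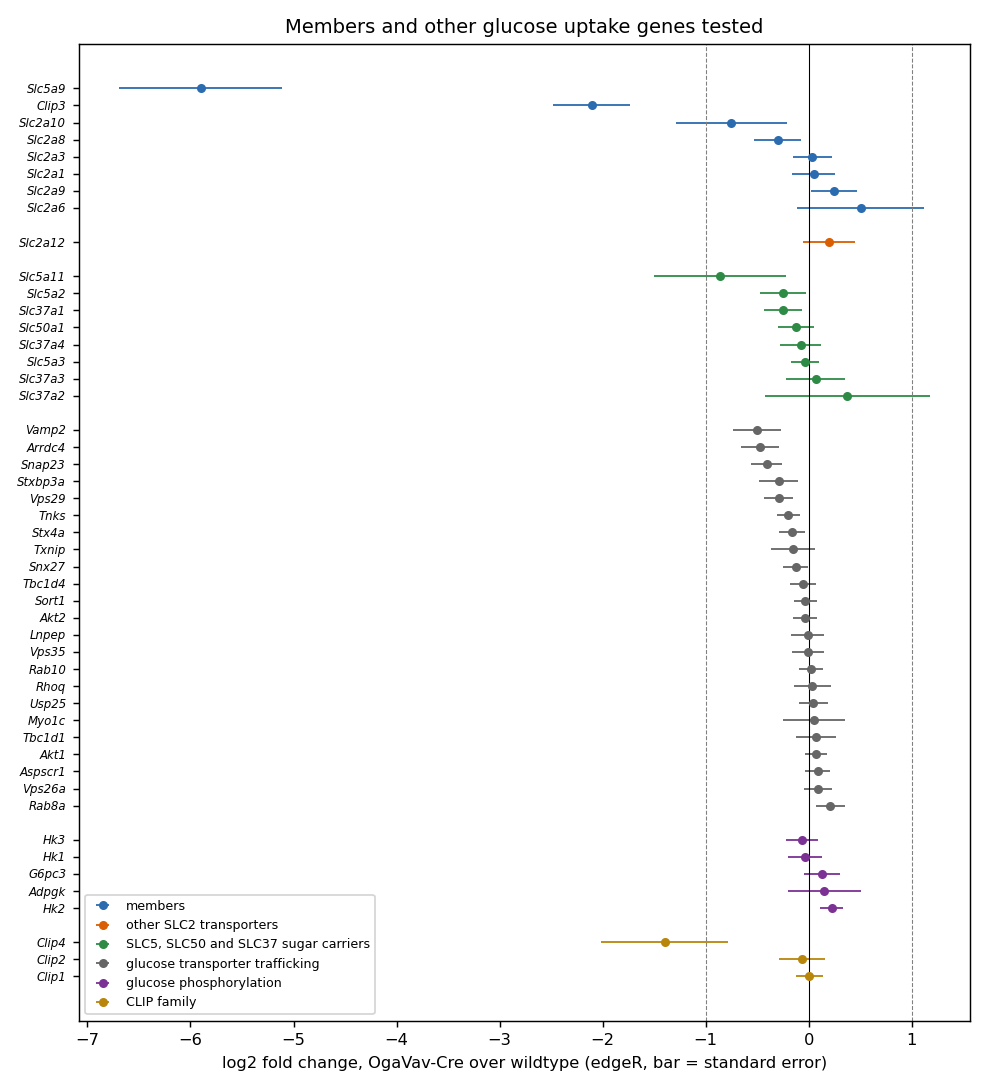
Log2 fold change (OgaVav-Cre over wildtype, edgeR) with its standard error for the 8 of the 9 genes that were tested and for the 40 tested genes of the other lists, coloured by list. Dashed lines mark a log2 fold change of 1 in either direction. Slc5a9 (-5.90), Clip3 (-2.11) and Clip4 (-1.40) lie past the left line.

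For each of the 9 genes, the 3 loci with the most similar pattern were taken by Pearson's r of log2(CPM + 1) over the 6 libraries. The points share libraries and depth, the best of 22031 loci is bound to be high, and the values are a description. Slc5a9 was closest to Mccc1 (r = 0.999), Zfp826 (0.997) and Per2 (0.996), whose own log2 fold changes were -0.82, -0.81 and -0.49. Clip3 was closest to Acad10 (0.998), AK140155 (0.997) and the locus listed as Sgip1 (0.997), at -1.29, -1.37 and -2.73. For Slc2a6, Lass6 (0.999) and Tnnt1 (0.997) are given, both with their highest read count in OgaVav-Cre replicate 3. For the other 6 genes the coefficients lay between 0.977 and 0.997. Their first loci were ENSMUSG00000083863 for Slc2a1, Gca for Slc2a3, Lrig1 for Slc2a4, Fermt2 for Slc2a8, Mul1 for Slc2a9 and LOC100504219 for Slc2a10.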

How the data were processed

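Poly(A) RNA of LSK cells from 6 mice was sequenced single-end, aligned to mm9 and counted per locus by the authors with Genomatix software, and CASAVA 1.8.2 is named in the submitters' processing notes. The deposited table holds raw read counts and RPKM (reads scaled to locus length and library size), the latter computed by the authors. Whether counting used strand or shared reads between overlapping loci is not given in the sources used here, and 59.9% of the 53445 loci overlap another. The authors' columns of fold changes and p-values were not used.

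Counts were analysed with edgeR 4.0.16 (TMM, filterByExpr, quasi-likelihood test, genotype as the only term, Benjamini-Hochberg adjustment) in R 4.3.3, and, as alternatives, DESeq2 1.42.0 and limma 3.58.1. The common biological coefficient of variation was 0.308. The procedure was tested on simulated data. Levels are CPM over TMM-scaled library sizes. Counting intervals are exact 95% intervals on summed reads. Wildtype and OgaVav-Cre libraries were each 1 mouse, so the spread is between mice. Within a group, log CPM correlated at 0.947 to 0.969 between libraries, and no 2 libraries held identical values.

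The 9 genes and the lists were chosen with earlier results of these data known. Named are all 9 genes, every listed gene called, the 2 with the smallest p and the 1 with the highest level in each list, the loci most like each of the 9 (3 were taken for each, of which the first alone is printed for 6 genes, and 1 is not reported here), and loci overlapping or flanking them. Promoter sequences are from RefSeq (GRCm38.p6).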

Additional observations from a re-analysis of the deposited data

How the results depend on the processing

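Over the whole table, edgeR called 6 loci lower and 1 higher. Without the filter on low counts it called 17 and 4, Slc5a9 among the lower, and the DESeq2 Wald test called 82 and 35, Slc5a9 and Clip3 among the lower. With at least 10 reads in every library 0 loci were called higher (edgeR, 2172 loci at an unadjusted p below 0.05 in either direction), likewise with limma-voom (0 higher, 2397 loci) and with limma on RPKM at a pseudocount of 0.1 (0 higher, 2376 loci) or 1 (0 higher, 2402 loci). Leaving out 1 library at a time gave 3 to 6 loci lower and 0 to 3 higher. Lower calls fell to 3 without wildtype replicate 1 or either of OgaVav-Cre replicates 1 and 2. Higher calls were 0 (edgeR, 1235 to 1745 loci at an unadjusted p below 0.05) without wildtype replicate 3 or either of OgaVav-Cre replicates 1 and 2, and 3 without OgaVav-Cre replicate 3 or wildtype replicate 2. The cause of these differences was not tested. Same-numbered libraries deviated together with correlations of -0.081, 0.260 and 0.316, against -0.381 to 0.206 for different-numbered ones. These values do not settle whether the replicate numbers pair mice. With the replicate block there were 4 loci lower and 2 higher. No gene of the pathway lists was called under any alternative run.

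The 9 genes were as follows. Slc5a9 and Clip3 were lower under every alternative that gave a value. Slc5a9 had none with at least 10 reads in every library, and Slc2a4 was fitted in neither the main test nor under that filter. On log2(RPKM + 0.1) and log2(RPKM + 1) Slc5a9 was at -2.57 and -0.64 and Clip3 at -1.61 and -0.53, a scale that understates changes of low genes. Slc2a6 turned to -0.63 without OgaVav-Cre replicate 3 and was 0.10 with the replicate block. Slc2a1 and Slc2a3 both changed sign without wildtype replicate 1, to -0.13 with an SE of 0.16 and to -0.15 with an SE of 0.12. Slc2a3 also changed sign without OgaVav-Cre replicate 3 and on both RPKM scales, there with values smaller than their SE. Low counts limit Slc2a4, Clip3 and Slc5a9 most.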
